A study of Rattus norvegicus with 8 samples.

Results

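Sodium handling was described here through 7 genes of the epithelial sodium channel and its partners, 7 of 14511 named genes measured in perfused rat liver: Scnn1a, Scnn1b, Sgk1, Nedd4l, Atp1b1, Slc4a4 and Fxyd1. A member was found by its gene symbol, from a probe set with that symbol alone. Scnn1a was selected on its measured difference between hypoosmotic and normoosmotic arrays, and the others were chosen by their link to it with results of the same arrays known. Their differences between the groups are therefore descriptions, without a test.

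The study compared livers of male Wistar rats aged 6 to 10 weeks, kept under ordinary husbandry and perfused with Krebs-Henseleit buffer, a salt solution that carries bicarbonate. Of the 8 arrays, 4 came from normoosmotic perfusion (305 mosm/L) and 4 from hypoosmotic perfusion (225 mosm/L), all at 180 min. Buffer in place of blood limits the perfused organ as a model, since circulating hormones are washed out. The labels do not give which solute was lowered in the dilute buffer, so lower osmolarity and a lower sodium concentration cannot be told apart. Nor do they state that each array stands for a rat of its own, and p-values reflect only how far these arrays differ, possibly for technical reasons.

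Values are log2 intensities, with array medians from 3.92 to 4.05, and 4 arrays a group limit the precision. The summed level of 10 hepatocyte markers (log2 of the sum of linear values) was 15.32 to 15.41 in normoosmotic and 15.30 to 15.33 in hypoosmotic livers, the markers of the labelled tissue being present on every array. Between the groups 1026 genes passed the test (limma, Benjamini-Hochberg adjusted p under 0.05), which is 7.07% of those tested, 356 (2.45%) higher and 670 (4.62%) lower in hypoosmotic livers. With each array centred on its median over the named genes, 271 were higher and 835 lower.

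The epithelial sodium channel, ENaC, lets sodium enter cells down its gradient and is built from an alpha, a beta and a gamma subunit, encoded by Scnn1a, Scnn1b and Scnn1g. In kidney, aldosterone raises the alpha subunit and the kinase Sgk1, whereas in rat distal colon it raises the beta and gamma subunits; Sgk1 restrains the ubiquitin ligase Nedd4l, which removes the channel from the surface. The Na,K-ATPase pumps the sodium out again. In rat hepatocytes, ENaC has been linked to a sodium conductance that opens when cells shrink in concentrated medium, and hypoosmotic buffer does the opposite and swells them.

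Scnn1a was higher in every hypoosmotic liver than in any normoosmotic one. Its log2 levels were 3.33, 3.67, 3.38 and 3.62 in normoosmotic replicates 1 to 4, and 4.66, 5.30, 4.07 and 5.42 in hypoosmotic replicates 1 to 4. The normoosmotic values lay close together, while the hypoosmotic ones spread widely, with replicate 3 lowest and replicate 4 highest. The means were 3.50 ± 0.17 and 4.86 ± 0.62 (SD, n = 4 each), a difference of 1.36 ± 0.25 (limma SE) on the log2 scale, or 2.57-fold. A difference of at least this size in either direction was found in 0.138% of all genes. Since Scnn1a was selected on this difference, nothing is read from that share. Leaving out 1 array at a time gave differences between 1.18 and 1.63. The normoosmotic level was low. Odorant receptor genes, not expected to be active in liver, serve as a guide to background, and 95% of 1105 such genes averaged below 3.07 over the 8 arrays. Only 2.62% of them averaged above the normoosmotic mean of Scnn1a. So close to background, the fold is not exact. In whole liver, more cells of a type and more RNA per cell cannot be told apart.

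The beta subunit Scnn1b stayed near that background level in both groups. It was 3.17, 3.28, 3.07 and 3.63 in normoosmotic and 3.24, 2.82, 3.30 and 3.09 in hypoosmotic livers. The groups overlapped, and the difference was -0.17 ± 0.15 (SE), a size that 40.4% of all genes reached. Scnn1g, the gamma subunit gene and not one of the 7, measured 2.98, 2.77, 2.79 and 2.67 against 3.20, 3.19, 3.05 and 2.87. Its hypoosmotic values were the higher ones apart from replicate 4, which fell within the normoosmotic range. The difference of 0.28 ± 0.11 did not pass (limma adjusted p = 0.190; 95% interval 0.03 to 0.52, not adjusted for the number of genes). Of the other 6 measured genes among ENaC and acid-sensing channel subunits, which are relatives of ENaC, 0 passed (limma), beside 7.07% of all genes. Of the 6, 1 (Scnn1g) had an unadjusted p under 0.05 (limma), beside 2999 of all 14511 genes, and 4 averaged below 3.07.

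**Figure D1:**
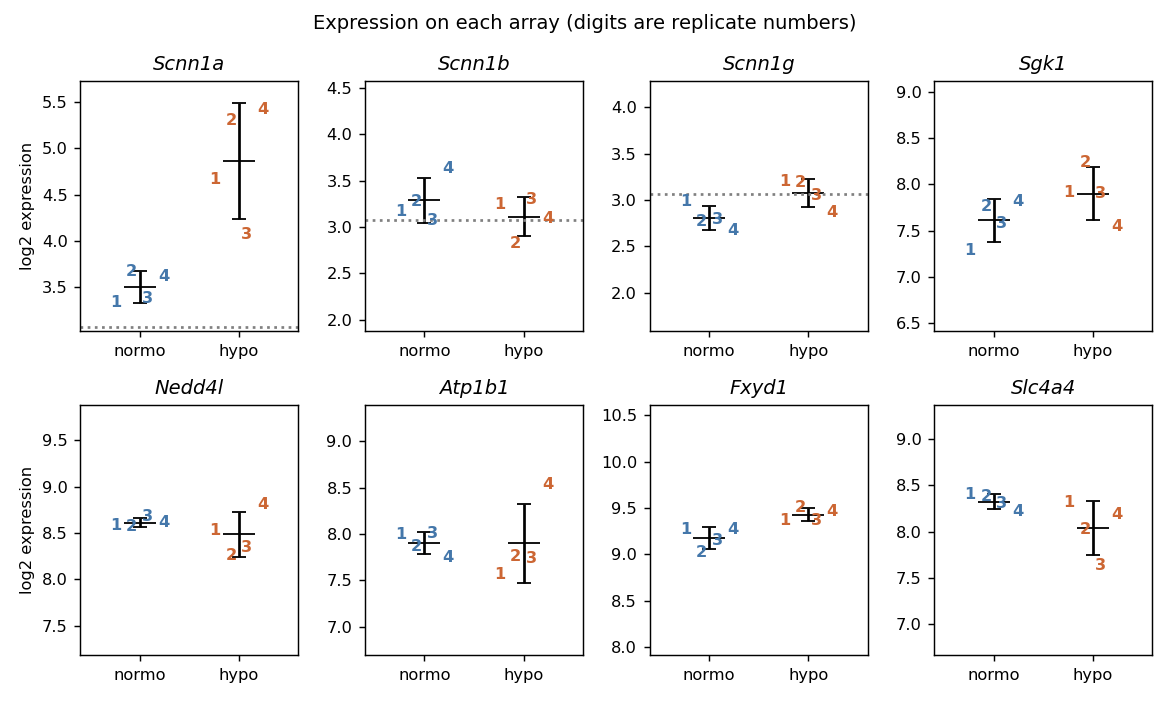
Log2 expression (vertical axes, each spanning the same number of log2 units) on normoosmotic and hypoosmotic arrays for the 7 members and Scnn1g; digits are replicate numbers, horizontal marks and bars are the mean and SD of 4 arrays, and the dotted line is the odorant receptor level of 3.07. The 4 hypoosmotic values of Scnn1a lie between 4.07 and 5.42, all above the normoosmotic ones, while Scnn1b and Scnn1g stay near the dotted line.

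Scnn1b and Scnn1g follow each other on rat chromosome 1, with 0 other genes between them in RefSeq's table. Their upstream sequences are shown because these are the subunit genes that stayed near background beside Scnn1a. Windows before the annotated start were taken from RefSeq (build GRCr8) and were at hand for 5 of the 7 members (Scnn1b, Sgk1, Nedd4l, Slc4a4 and Fxyd1) and for Scnn1g. The 250 bases before each start are written 5′ to 3′ on the gene's strand, with every match to any of 4 motifs, on either strand, in capitals. The motifs were GGGCGG (a GC box, bound by Sp1), TGTTCT (a single arm of a corticosteroid receptor site), TATAAA (the TATA box) and TGGAAA (the core bound by NFAT proteins, Nfat5 included). Of all 33469 windows of this length, 30.5% held the GC box, 17.5% the corticosteroid arm, 12.9% the TATA box and 19.7% the NFAT core.
Scnn1b, chr1:185861126-185861375, + strand: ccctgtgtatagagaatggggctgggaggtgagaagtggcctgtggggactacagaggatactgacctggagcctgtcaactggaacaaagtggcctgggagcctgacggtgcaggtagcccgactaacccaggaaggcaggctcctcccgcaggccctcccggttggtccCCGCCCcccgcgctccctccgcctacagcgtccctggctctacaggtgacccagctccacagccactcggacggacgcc
Scnn1g, chr1:185735975-185736224, + strand: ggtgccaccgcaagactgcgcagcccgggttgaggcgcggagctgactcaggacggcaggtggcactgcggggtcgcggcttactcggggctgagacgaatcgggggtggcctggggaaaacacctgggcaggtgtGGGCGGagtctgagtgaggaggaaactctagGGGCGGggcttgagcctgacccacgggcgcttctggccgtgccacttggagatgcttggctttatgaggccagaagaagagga
The Scnn1b window held 1 GC box and the Scnn1g window 2, and neither held the other motifs. A match is a description of letters only, and a missing match says only that these letters are not in the window.

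Among the regulators of ENaC, Sgk1, a kinase known for its rapid transcriptional response to corticosteroids and cell volume, was well above background. It measured 7.29, 7.76, 7.58 and 7.81 in normoosmotic and 7.91, 8.24, 7.90 and 7.54 in hypoosmotic livers. Hypoosmotic replicates 1 to 3 lay above all normoosmotic arrays, but replicate 4 lay below 3 of them. The difference was 0.29 ± 0.16 (SE), and 22.9% of all genes differed by at least as much. Hypoosmotic replicate 4 thus held the highest Scnn1a and the lowest Sgk1 of its group.

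RefSeq listed 3 start sites for Sgk1, and the one whose window held the most motif matches is shown because Sgk1 is the member best known for rapid control at its promoter.
Sgk1, chr1:24804832-24805081, - strand: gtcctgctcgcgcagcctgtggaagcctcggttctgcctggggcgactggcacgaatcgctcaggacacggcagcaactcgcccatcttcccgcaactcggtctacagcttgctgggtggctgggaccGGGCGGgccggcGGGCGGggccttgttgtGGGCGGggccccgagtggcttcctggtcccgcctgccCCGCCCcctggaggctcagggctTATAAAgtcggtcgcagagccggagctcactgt
The window held 4 GC boxes and 1 TATA box and neither the corticosteroid arm nor the NFAT core. Of the other Sgk1 windows, one held 2 GC boxes and 1 NFAT core and the other 1 TATA box.

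Nedd4l, the ligase that marks ENaC for removal, was steady in normoosmotic livers at 8.58, 8.57, 8.68 and 8.61. In hypoosmotic livers it was 8.53, 8.26, 8.34 and 8.81, so the groups overlapped and replicate 4 was the highest of all 8 arrays. The difference was -0.12 ± 0.13 (SE), reached in size by 53.2% of all genes.

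Of 21 other measured ENaC regulators 1 fell, 0 rose and 20 did not pass, with a median difference of 0.05 against 0.02 for all genes. The share that passed was 4.76%, beside 7.07% of all genes. The gene that fell was Usp10, a deubiquitinase that has been tied to surface delivery of ENaC. It went from 6.40, 6.52, 6.59 and 6.75 to 5.56, 5.74, 5.51 and 6.03, with no overlap. Its difference of -0.85 ± 0.13 corresponds to 1.81-fold lower (limma adjusted p = 0.00645), and leaving out any 1 of the 8 arrays kept it past the threshold. Proteases that cleave and open ENaC did not pass. Furin was 7.75 ± 0.09 and 7.71 ± 0.06 (SD, n = 4 each), and Prss8, encoding prostasin, was 3.66 ± 0.25 and 4.03 ± 0.50. For Prss8 the adjusted p was 0.421 over all arrays and 0.0427 without hypoosmotic replicate 4, whose value of 3.30 was the lowest of the 8. Wnk1, a kinase that acts on Sgk1 and on cation-chloride cotransporters, had 4 hypoosmotic values (8.23 to 8.58) below the 4 normoosmotic ones (8.63 to 8.93), yet its difference of -0.36 ± 0.12 did not pass (limma adjusted p = 0.0899).

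The sodium pump was described by its beta 1 subunit, Atp1b1, which carries the pump to the membrane, and by Fxyd1 (phospholemman), a small protein that tunes its activity. Atp1b1 measured 7.99, 7.87, 8.0 and 7.75 in normoosmotic and 7.56, 7.76, 7.74 and 8.53 in hypoosmotic livers. Replicate 4 stood above every other array and replicate 1 below. The means were 7.90 ± 0.12 and 7.90 ± 0.43 (SD, n = 4 each), and 97.8% of all genes differed by more than or as much as the -0.01 ± 0.19 (SE) of Atp1b1. Without hypoosmotic replicate 4 the difference was -0.22, and its sign turned under several settings.

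Fxyd1 was the other member whose groups did not overlap. Its values of 9.27, 9.02, 9.15 and 9.27 in normoosmotic livers lay just below 9.37, 9.51, 9.37 and 9.46 in hypoosmotic livers. The difference was small, 0.25 ± 0.10 (SE) or 1.19-fold, and varied between 0.20 and 0.28 when 1 array was left out. Fxyd1 is known to be abundant in smooth muscle. Markers of that cell type had a summed level of 8.32 to 8.81 in normoosmotic and 8.86 to 9.04 in hypoosmotic livers. Of these 7 markers 0 passed (limma), beside 7.07% of all genes. An unadjusted p under 0.05 (limma) was reached by 2, beside 2999 of all 14511 genes. The part of these markers in the Fxyd1 difference was not tested.

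Of 10 other measured pump subunits and FXYD proteins 1 rose, 0 fell and 9 did not pass, with a median of 0.03. The share that passed was 10.0%, beside 7.07% of all genes. Fxyd6, a further pump regulator, went from 4.51, 4.47, 4.37 and 4.06 to 4.88, 4.96, 5.01 and 4.80, with no overlap. It rose by 0.56 ± 0.12, or 1.47-fold (limma adjusted p = 0.0191), and passed in 6 of 8 fits without 1 array (0.0249 to 0.0559, highest without hypoosmotic replicate 2). Fxyd2, the gamma subunit of the pump, was 5.69 ± 0.27 and 5.80 ± 0.18 (limma adjusted p = 0.758), and the beta 3 subunit gene Atp1b3 was 6.64 ± 0.11 and 6.79 ± 0.09 (0.495).

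Slc4a4 encodes the electrogenic sodium bicarbonate cotransporter NBCe1, which brings bicarbonate into hepatocytes together with sodium. Its normoosmotic levels were 8.40, 8.38, 8.30 and 8.22, and its hypoosmotic levels 8.31, 8.02, 7.64 and 8.19. Hypoosmotic replicates 2 to 4 lay below all normoosmotic arrays and replicate 1 within their range. The difference was -0.28 ± 0.14 (SE), a size that 23.3% of all genes reached, and -0.15 without hypoosmotic replicate 3, the lowest array. Of 9 other Slc4 family genes, bicarbonate cotransporters and anion exchangers, 0 passed (limma), beside 7.07% of all genes. Their median difference was -0.06, and 1 had an unadjusted p under 0.05 (limma), beside 2999 of all 14511 genes.

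Counted together, 1 of the 7 members, Scnn1a, passed the threshold over all genes, beside 7.07% of all genes, or 2.45% in that direction, while 0 passed as lower, beside 4.62%. The groups did not overlap for 2 of the 7, Scnn1a and Fxyd1, both with hypoosmotic values higher, beside 5.33% of all genes in that direction. Since the members were chosen with this comparison known, nothing is read from either count.

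**Figure D2:**
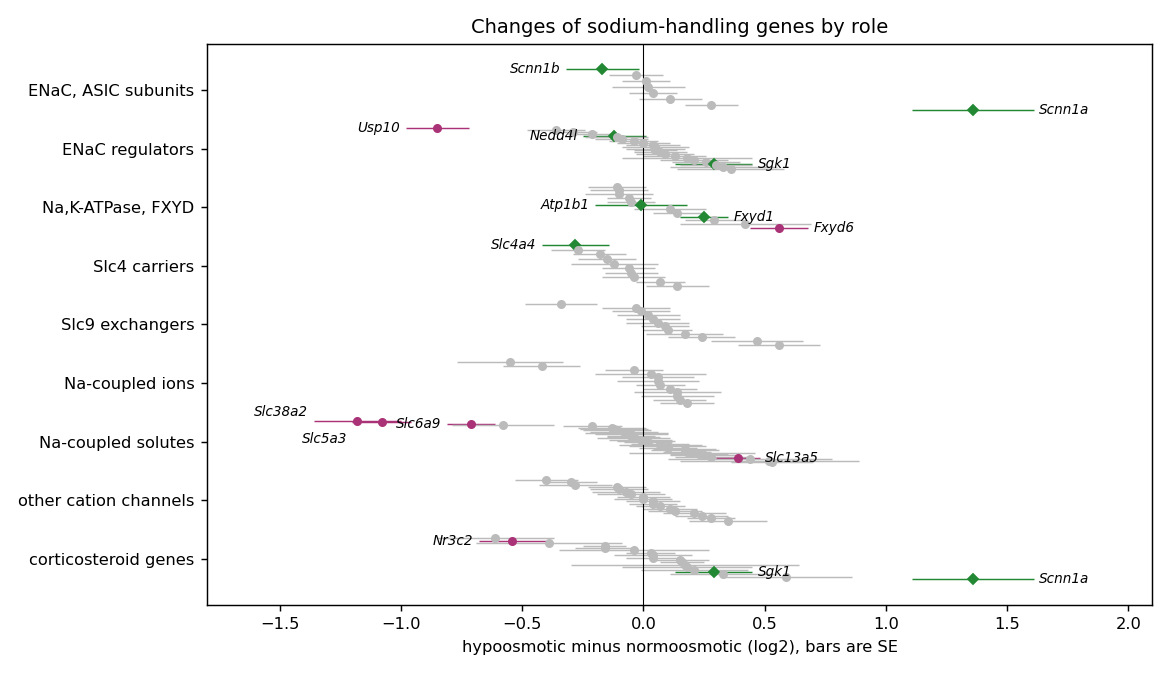
Hypoosmotic minus normoosmotic difference (horizontal axis, log2) with its limma SE for every measured gene of 9 sodium-handling lists (rows); green diamonds are the 7 members, given as a description, purple points are other genes that passed over all genes, and grey points did not pass. Scnn1a lies at 1.36, apart from the other channel subunits, and Slc38a2 and Slc5a3 lie at -1.18 and -1.08.

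Beyond the members, 133 further genes of sodium transport and its steroid control were measured, and 7 of them passed, 2 higher and 5 lower, or 5.26% against 7.07% of all genes. Their median difference was 0.04. The count fell to 4, all lower, without normoosmotic replicate 3 and also without hypoosmotic replicate 2.

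Carriers that draw organic solutes into cells with sodium held 4 of these 7 genes, 3 lower and 1 higher of 32 measured. This was the largest of the lists, and 12.5% of it passed, beside 7.07% of all genes. The amino acid transporter Slc38a2 fell by 1.18 ± 0.18 (SE) and the myo-inositol transporter Slc5a3 by 1.08 ± 0.12 on the log2 scale. Slc6a9, the sodium- and chloride-coupled glycine transporter, went from 8.60, 8.32, 8.49 and 8.57 to 7.70, 7.81, 7.87 and 7.74. Its groups lay far apart, 1.64-fold lower in hypoosmotic livers (limma adjusted p = 0.00446), and all 3 genes passed in each of the 8 fits without 1 array. The citrate transporter gene Slc13a5 rose from 2.71 ± 0.07 to 3.09 ± 0.08, a range that straddles the odorant receptor level. Its adjusted p of 0.0337 (limma) did not hold with each array centred on its median (0.0552) or after a further quantile normalization (0.0580), and it passed in 1 of 8 fits without 1 array (0.0351 to 0.0967, highest without normoosmotic replicate 3). Slc10a1, the sodium-dependent bile salt importer of hepatocytes, was 11.05 ± 0.23 and 11.13 ± 0.06 (limma adjusted p = 0.822).

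Carriers of inorganic ions held none of the 7. Measured were 12 sodium-proton exchangers and their regulators, 12 sodium-coupled chloride, calcium and phosphate carriers and 18 voltage-gated and other cation channels. In each list 0 passed (limma), beside 7.07% of all genes. Lists this small can hold 0 at that share, so no contrast with the organic solute carriers is read from it. In the same order, 4, 3 and 13 of these genes averaged below the odorant receptor level. Unadjusted p-values under 0.05 (limma) numbered 3, 2 and 4, beside 2999 of all 14511 genes. The sodium-potassium-chloride cotransporter gene Slc12a2, whose protein brings salt into shrunken cells, was 5.67 ± 0.17 and 5.25 ± 0.31, a difference of -0.42 ± 0.16 that did not pass (limma adjusted p = 0.138).

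Steroid control of sodium transport runs through the mineralocorticoid receptor Nr3c2 and the glucocorticoid receptor Nr3c1. Nr3c2 measured 6.14, 5.78, 6.08 and 5.65 in normoosmotic and 5.57, 5.39, 5.12 and 5.41 in hypoosmotic livers, where all 4 values were lower. It fell by 0.54 ± 0.14 (SE; limma adjusted p = 0.0419), but passed in 2 of 8 fits without 1 array (0.0400 to 0.124, highest without normoosmotic replicate 3). Nr3c1 was 8.86 ± 0.08 and 8.71 ± 0.07, and its difference of -0.16 ± 0.09 did not pass (limma adjusted p = 0.398). Of the 16 measured genes of steroid receptors, steroid metabolism and steroid response other than Scnn1a and Sgk1, Nr3c2 was the 1 that passed. That is 6.25% of this list, beside 7.07% of all genes.

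Among the hypoosmotic arrays, genes known to respond to corticosteroids were mostly highest on replicate 3. Of 12 such genes other than Scnn1a and Sgk1, 9 had their highest hypoosmotic value on that array. The median deviation from the group mean was 0.61 there, against -0.35, -0.08 and -0.01 for replicates 1, 2 and 4. How many of all genes peaked on that array was not counted, so the 9 of 12 are not read as particular to steroid genes. In normoosmotic livers, replicates 1 and 3 each held the highest value for 5 of the 12, each with a median deviation of 0.04. Tsc22d3 (GILZ, a glucocorticoid-induced leucine zipper protein) was 5.26 there and 3.71, 4.14 and 3.98 on replicates 1, 2 and 4. Its difference between the groups was 0.18 ± 0.27 (limma adjusted p = 0.795) and -0.15 without that array. Per1, Zbtb16, Klf9, Tat, Dusp1 and Usp2 also peaked on replicate 3, named after their values were seen, and Fkbp5, Cnksr3 and Edn1 were lowest there. Scnn1a, itself steroid-induced in kidney, was lowest of its group on the same array, 0.79 below the group mean. That array also had the lowest limma array weight, 0.535, and its part in the spread of Scnn1a was not tested; the Scnn1a difference without it was 1.63.

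**Figure D3:**
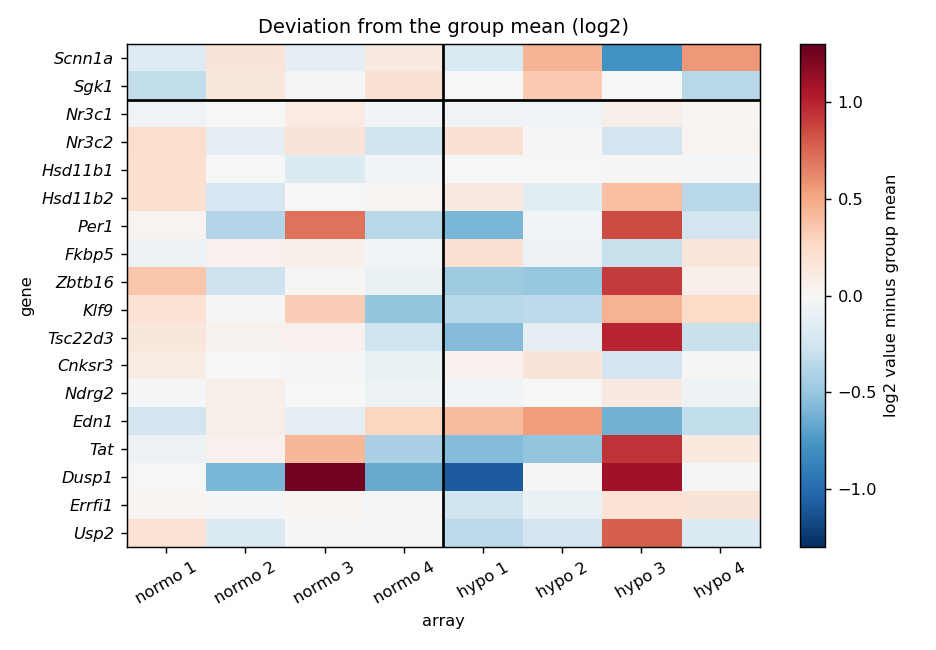
Deviation of each array from its own group mean (colour, log2) for Scnn1a, Sgk1 and 16 steroid-related genes (rows) on 8 arrays (columns). On hypoosmotic replicate 3 Tsc22d3, Zbtb16, Tat, Per1 and Usp2 are high, while Fkbp5, Cnksr3 and Edn1 are at their lowest of that group. Scnn1a is 0.79 below its group mean there.

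Bile duct epithelium, the liver's other epithelium beside hepatocytes, was checked through 12 of 14 listed markers. Their summed level was 7.95 to 8.19 in normoosmotic and 8.21 to 8.48 in hypoosmotic livers. Of the 12, 1 rose and 0 fell, so 8.33% passed, beside 7.07% of all genes. The gene that rose was Elf3, an epithelial transcription factor, by 0.95 ± 0.23 (limma adjusted p = 0.0352). It passed in 3 of 8 fits without 1 array (0.0185 to 0.0890, highest without hypoosmotic replicate 2). An unadjusted p under 0.05 (limma) was reached by 3 of the 12, Elf3, Ezr and Slc5a1, beside 2999 of all 14511 genes. The groups did not overlap for 2, Ezr and Slc5a1, both higher in hypoosmotic livers, beside 5.33% of all genes in that direction. Slc5a1, the sodium-glucose cotransporter SGLT1 and also among the sodium-coupled carriers above, measured 3.60, 3.46, 3.16 and 3.54 in normoosmotic and 4.45, 3.89, 3.65 and 3.89 in hypoosmotic livers. Its difference of 0.53 ± 0.17 did not pass (limma adjusted p = 0.0868; 0.0394 with array weights and 0.0474 without hypoosmotic replicate 3). The water channel gene Aqp1 differed by 0.38 ± 0.17 (limma adjusted p = 0.242), the defining keratin gene Krt19 by -0.04 ± 0.12 and Krt7 by 0.03 ± 0.17. None of these markers has a true zero on arrays, but Cftr (2.82), Cldn7 (2.67) and Muc1 (2.70) averaged below the odorant receptor level. The part of these markers in the Scnn1a difference was not tested.

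Genes whose profile over the 8 arrays was nearest to that of Scnn1a were sought by the root-mean-square difference after subtracting each gene's mean. The nearest was Nptx2, a neuronal pentraxin, at 0.11, against a median of 0.81 over all genes. Nptx2 measured 4.59, 4.75, 4.59 and 4.73 in normoosmotic and 5.88, 6.31, 5.43 and 6.48 in hypoosmotic livers, so its hypoosmotic arrays stood in the same order as those of Scnn1a, replicate 4 highest and replicate 3 lowest. Next came Pramef8 at 0.28, the cytochrome P450 gene Cyp3a62 and Mpzl2, a cell adhesion protein gene, at 0.29 each, and Dus4l, encoding a tRNA dihydrouridine synthase, at 0.31. Probes for Pramef8 and Cyp3a62 may also bind transcripts of close relatives in their gene families. Among the members, Fxyd1 (0.67) and Sgk1 (0.70) were nearest and Scnn1b (0.92) farthest, where 85.9% of all genes were nearer to Scnn1a. These distances describe 8 arrays that share the contrast between the buffers, so genes that differ by a like amount come out near each other. The 5 genes were picked for nearness over the same arrays, so nothing is read from a like order within the groups.

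**Figure D4:**
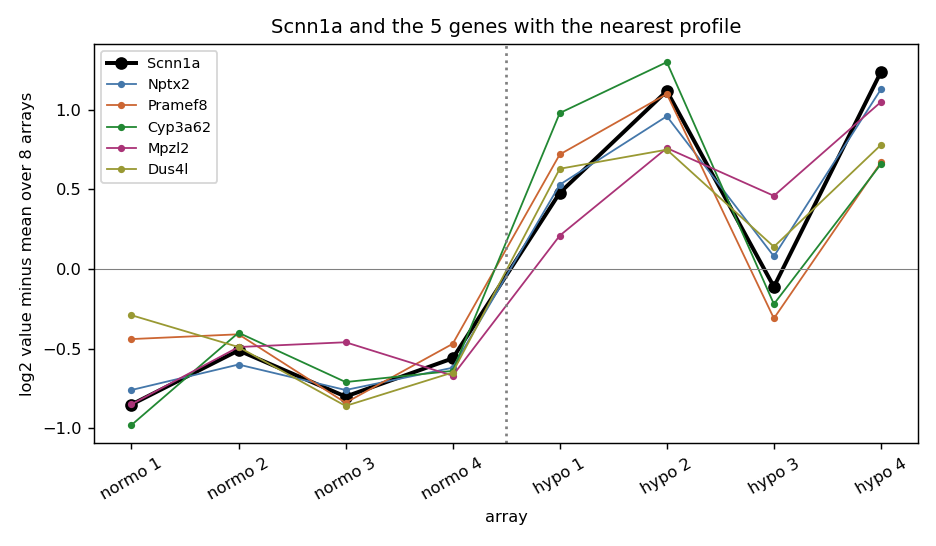
Log2 value minus the gene's mean over the 8 arrays (vertical axis) by array (horizontal axis) for Scnn1a (thick black line) and the 5 genes with the nearest profile. Nptx2 follows Scnn1a most closely, with a root-mean-square difference of 0.11, and all 6 genes dip on hypoosmotic replicate 3 relative to replicates 2 and 4. The 5 were picked for nearness over these arrays, so nothing is read from the shared dip.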

How the data were processed

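The authors deposited log2 expression values of 27596 probe sets on 8 Affymetrix arrays; the submitters' processing notes name RMA, Transcriptome Analysis Console 4.0 and Affymetrix Expression Console without saying what each did. RMA equalises arrays, which would hide a shift common to most genes. The build of the probe design is not given in the sources used here. Groups and replicate numbers came from the sample titles.

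Probe sets were named by the platform annotation of GEO, updated through RefSeq gene identifiers: 15316 had 1 symbol, 317 several and 11963 were not named. For each of 14511 genes the probe set with the highest mean was used; each of the 7 members had a single one. Differences were fitted with limma 3.58.1 in R 4.3.3 (lmFit, eBayes, group as the only term), with p-values from both tails adjusted by Benjamini-Hochberg over all genes at 0.05. The fit was tested on simulated data in which 200 of 14511 genes were changed. It recovered 30% of changes of 0.5 on the log2 scale and 89% of changes of 1, with 5 false calls. A gene with a small difference that did not pass may therefore have been missed. Python 3.11.15, pandas 2.3.3 and matplotlib 3.10.9 made tables and plots.

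The members and lists were chosen with earlier results of these data known. Named were the members, up to 5 genes that passed from each list, 13 genes given whatever their value (11 measured), and the 5 nearest to Scnn1a. Ezr, Elf3, Slc5a1, Aqp1, the keratin genes and other markers, and the steroid-induced genes besides Tsc22d3 were named after their values were seen, and the odorant receptor level and the comparison of single arrays were added then. Other settings tried were a term for the replicate number, trend and robust variances, array weights, quantile normalization, median centring, leaving out the dimmest 30% of genes, averaging probe sets, and leaving out each array.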

Additional observations from a re-analysis of the deposited data

Results flagged for a closer look

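In 80 groups of 4 arrays (40 genes in each buffer), 3 held an array that stood far from the others by Dixon's criterion (critical value 0.829), which chance gives in about 1 of 20 groups. Usp2, a deubiquitinase gene induced by aldosterone, was 4.39 on hypoosmotic replicate 3 against 3.27 to 3.42 on the others. That array held the highest hypoosmotic value for 9 of 12 steroid-induced genes, Usp2 included, but how many of all genes peaked there was not counted. Slc10a1 was 11.39 on normoosmotic replicate 1 against 10.89 to 10.97. Pramef8, near Scnn1a in profile, was 3.43 on normoosmotic replicate 3 against 3.80 to 3.86.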

How the results depend on the processing

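The count of all genes that passed, 1026, ranged from 468 to 1051 when 1 array was left out: 626, 675, 468 and 563 without normoosmotic replicates 1 to 4, and 545 without hypoosmotic replicate 2, with fewer arrays also meaning less power. The 7 sodium-list genes that passed became 4 to 8, with 4 without normoosmotic replicate 3 or hypoosmotic replicate 2. The members' differences moved by less than 1 SD within groups (pooled over both) in every alternative run, although those of Scnn1a, Nedd4l, Atp1b1 and Slc4a4 moved by more than their normoosmotic SD in some; Scnn1a stayed between 1.18 and 1.63 when 1 array was left out, Scnn1b between -0.25 and -0.06, Sgk1 between 0.17 and 0.41, Nedd4l between -0.23 and -0.05, Slc4a4 between -0.38 and -0.15, Fxyd1 between 0.20 and 0.28, and Atp1b1 between -0.22 and 0.11, with both signs. Same-numbered arrays of the groups had deviations correlated at 0.01, 0.26, 0.12 and 0.06. For numbers 2, 3 and 4 the same-numbered array was the best match, and for number 1 it was not. The labels do not state a pairing, and correlations this small cannot decide whether the arrays were paired. With the replicate number as a block 1029 genes and 7 sodium-list genes passed, of which Ezr (0.0473) and Slc5a1 (0.0356) had not passed before, while Nr3c2 (0.0508) and Slc13a5 (0.0568) no longer did. The Scnn1a difference was 1.36 there too, with a limma SE of 0.18 in place of 0.25. Levels near 3.07 limit what can be said of Scnn1b, Scnn1g, Slc13a5 and the normoosmotic Scnn1a.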

Other observations

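Some markers of other liver cells also differed. Of 11 listed endothelial markers 7 were measured, and of these 2 rose and 0 fell. That is 28.6% of the measured ones, beside 7.07% of all genes, or 2.45% in that direction. Since the list was chosen with earlier results of these data known, nothing is read from that share. Kdr rose by 0.66 ± 0.15 (SE, limma adjusted p = 0.028). It passed in 2 of 8 fits without 1 array (0.0254 to 0.0654, highest without normoosmotic replicate 1). S1pr1 rose by 1.39 ± 0.29 (limma adjusted p = 0.0184) and passed in all 8 of these fits. The summed level of the endothelial markers was 9.70 to 9.97 in normoosmotic and 10.03 to 10.64 in hypoosmotic livers. Of 10 macrophage and 10 stellate cell markers 0 passed (limma), beside 7.07% of all genes. Unadjusted p-values under 0.05 (limma) numbered 0 and 2, beside 2999 of all 14511 genes. Summed levels of both lists overlapped between the groups. All 7 neutrophil markers averaged below the odorant receptor level. Ezr, which links membrane carriers to actin and was counted with the proton exchangers and with the bile duct, had hypoosmotic values of 5.34 to 6.13 above normoosmotic ones of 4.84 to 5.23, yet its difference of 0.56 ± 0.17 did not pass (limma adjusted p = 0.0727; 0.0483 without hypoosmotic replicate 4 and 0.0473 with the replicate number as a block).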
